A study of Mus musculus with 2 samples.

Results

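The interleukin-1 (IL-1) family genes described here are 9 of the 31054 features in both count tables, chosen by their symbols: the ligands Il1a, Il1b, Il33 and Il18, the receptors Il1r1 and Il1rl1, their shared partner Il1rap, the decoy receptor Il1r2 and the receptor antagonist Il1rn. All were followed across cell types in 2 libraries of single-cell RNA from tumours of mice carrying an allograft model of pancreatic ductal adenocarcinoma (PDAC). Both libraries came from mice of the genotype p16-CreERT2/R26-LSL-tdTomato, in which Cre made from the p16 locus, once activated, removes a stop cassette so that a cell and its daughters make the red protein tdTomato. Stromal cells sorted as tdTomato positive gave the Tom positive library and those sorted as tdTomato negative gave the Tom negative library, so both groups share the mouse genotype and the tumour model. The labels used here do not give the ages or number of mice, the tumour cell line, or when Cre was activated. The reporter marks cells in which the p16 locus was active at induction, of whatever cell type, and not p16 at the time of sorting.

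IL-1 alpha and IL-1 beta bind the receptor IL1R1, which signals only after IL1RAP joins it. IL1RN occupies IL1R1 without recruiting IL1RAP, and IL1R2 binds the ligands but lacks the signalling domain, so both hold the pathway back. IL-33 acts through IL1RL1, also known as ST2, with the same partner IL1RAP, and is known as an alarm signal kept in the nuclei of stromal and lining cells. IL-1 beta and IL-18 are made as precursors that caspase-1 can cut after an inflammasome has formed. In pancreatic tumours IL-1 is known as a signal that turns fibroblasts towards an inflammatory state.

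Of these genes, the ligands Il1b, Il1a and Il33 have an annotated start with the letters TATAAA on the gene's strand, their first base between 25 and 35 bases upstream, and are shown for that reason, a choice made after all members' windows had been searched. The 250 bases before the start are given 5′ to 3′ on the gene's strand, from RefSeq on GRCm38.p6, with TATAAA in capitals. The windows lie at chr2:129371140-129371389 on the minus strand for Il1b, chr2:129309973-129310222 on the minus strand for Il1a and chr19:29945540-29945789 on the plus strand for the second of the 2 annotated Il33 starts.
Il1b: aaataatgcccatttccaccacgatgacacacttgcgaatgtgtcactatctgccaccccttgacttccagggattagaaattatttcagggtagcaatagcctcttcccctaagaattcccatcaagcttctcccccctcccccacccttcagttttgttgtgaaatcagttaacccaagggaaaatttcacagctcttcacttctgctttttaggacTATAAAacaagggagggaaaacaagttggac
Il1a: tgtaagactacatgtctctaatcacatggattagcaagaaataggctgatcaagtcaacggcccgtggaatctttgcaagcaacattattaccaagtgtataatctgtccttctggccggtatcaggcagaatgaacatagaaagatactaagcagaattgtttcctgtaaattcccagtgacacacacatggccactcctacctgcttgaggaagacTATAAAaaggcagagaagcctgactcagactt
Il33: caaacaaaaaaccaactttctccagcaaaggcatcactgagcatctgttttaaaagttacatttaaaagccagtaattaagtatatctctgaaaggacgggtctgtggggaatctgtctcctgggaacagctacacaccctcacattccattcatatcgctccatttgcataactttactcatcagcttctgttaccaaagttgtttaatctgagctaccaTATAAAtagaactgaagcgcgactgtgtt

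TATAAA began 31 bases before the Il1b start, 32 before the Il1a start and 29 before that Il33 start. Of all 32851 windows of this length, 1.75% held TATAAA at that place and strand, and 12.4% held it anywhere on either strand. All 9 members matched a window, with 14 windows in all, and 3 members had TATAAA at that place. The PU box letters GAGGAA, searched on both strands, were found in Il1a alone among the members, 41 bases upstream, and in 23.3% of all windows. The AP-1 letters TGANTCA, also searched on both strands, were found in Il1a, 12 bases upstream, and in Il1rn, and in 6.75% of all windows. These matches describe letters and show no binding. Il1r2, Il1r1 and Il1rl1 all lie on chromosome 1, from 40074079 to 40465415 of the plus strand in the GENCODE M21 annotation of mm10. Il1b overlaps the antisense gene Il1bos, and Il18 overlaps Bco2 and Tex12 on the other strand. The labels do not say whether reads were counted by strand. Il1rl1 transcripts end in 4 groups of places more than 500 bases apart, and the counts join its soluble and membrane forms.

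The filters kept 4302 cells of the Tom positive and 6580 of the Tom negative library, with medians of 24191 and 20610.5 unique molecular identifiers (UMIs, each marking 1 captured RNA molecule) and 117251005 and 151014470 UMIs in all. Levels are in CPM, the usual scaling of a gene's UMIs to a common library total, taken over the summed cells of a class. Where values come in pairs, the Tom positive library stands first. The reporter was at 547 and 29.7 CPM. The cells fell into 28 clusters, of which 22 took 1 of 13 class names from markers and 6 stayed unnamed. The libraries were not equally separated by the reporter in each class. It was at 1145 and 42.0 CPM in macrophage-like, 393 and 17.3 CPM in fibroblast-like and 208 and 107 CPM in endothelial-like cells. Tom positive cells of fibroblast-like cluster 5 were at 103 CPM, the same level as Tom negative neutrophil-like cells. The libraries shared 3660 barcode sequences. Kept barcodes were doubted, being held by the other library with over 5 times the UMIs or by both under 5000 UMIs, in 5.44% and 18.7% of the cells. Doubted barcodes made up 98.8% and 93.5% of mesothelial-like cells, 96.3% and 97.8% of plasma-like cells and 0.196% and 49.6% of endothelial-like cells, so values in those classes are given with that doubt. There was 1 library per group, so no difference between groups was tested. The 95% intervals below cover counting error only. UMIs of different genes depend on the 3′ end captured, so levels are compared between cell types within a gene and not between genes.

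The family fell into a myeloid and a stromal side. Il1b, Il1a, Il1rn, Il1r2 and Il1rap were highest in neutrophil-like cells among the named classes of both libraries, while Il33 was highest in fibroblast-like cells. Il1r1 was high in fibroblast-like, pericyte or smooth muscle-like and endothelial-like cells and low in most myeloid cells. It was also high in mesothelial-like and plasma-like cells, mostly on doubted barcodes. Over 39 cluster and library points from 23 clusters of at least 50 cells, log2(CPM + 1) of Il1b correlated with that of Il1rn at r = 0.96 and with that of Il1r1 at r = -0.82, as a description. The points share libraries and depth, and no p is given.

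**Figure D1:**
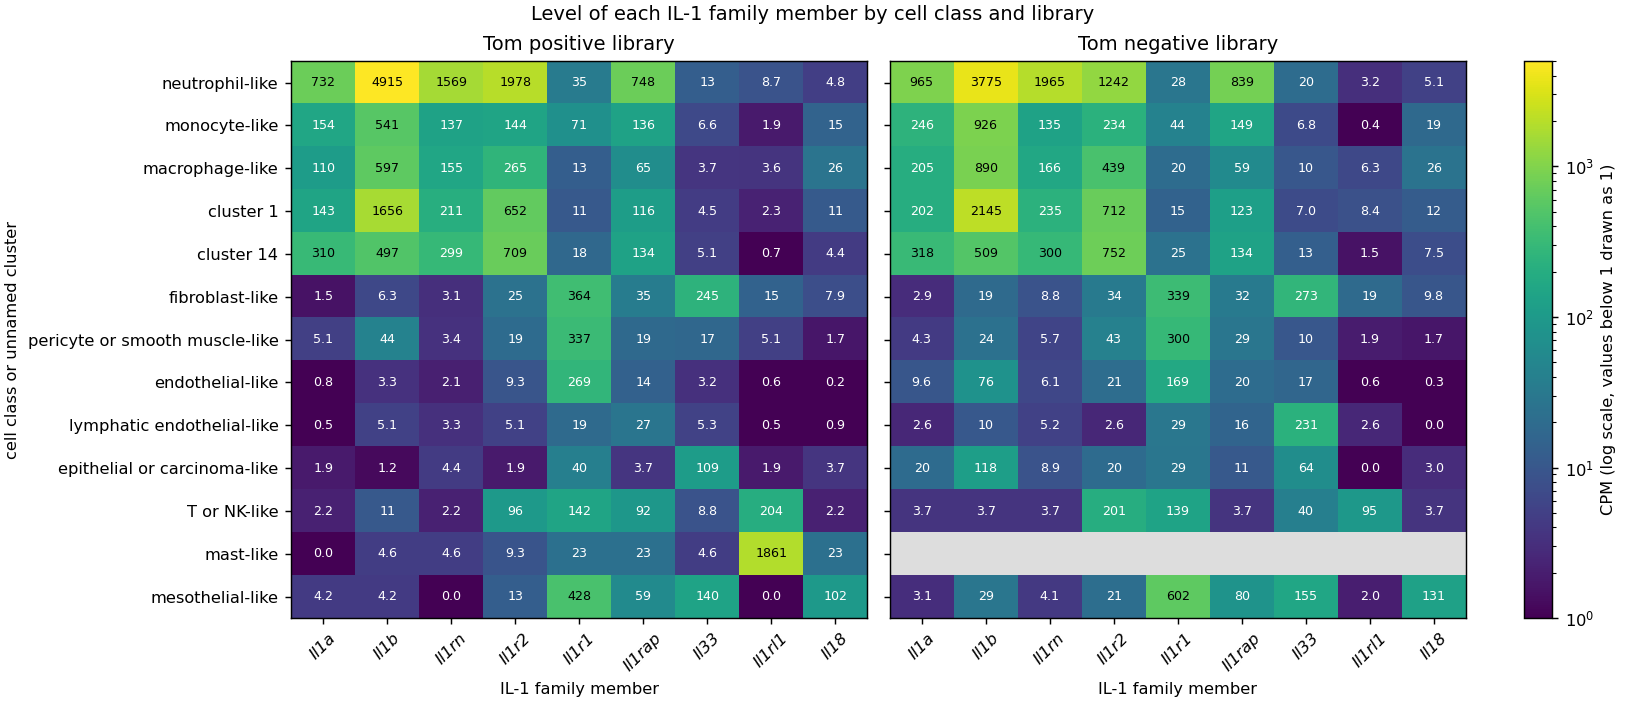
CPM of the 9 members (columns) in named classes and unnamed clusters 1 and 14 (rows), on a log colour scale, in the Tom positive (left) and Tom negative (right) library. Il1b was at 4915 and 3775 CPM in neutrophil-like cells, Il1r1 at 364 and 339 CPM in fibroblast-like cells. The grey row marks mast-like cells, of which the Tom negative library held 2.

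Il1b, the ligand made by activated myeloid cells, stood in neutrophil-like cells at 4915 CPM (4781 to 5052) and 3775 CPM (3679 to 3872). Cluster 1, unnamed and led by Ccl17, Bcl2a1d, Mgl2 and H2-Eb1, came next at 1656 and 2145 CPM, and then cluster 12 of the macrophage-like class, led by Adamdec1 and Ccl24, at 1157 and 1440 CPM. Monocyte-like cells were at 541 and 926 CPM. The intervals of monocyte-like and macrophage-like cells overlapped in the Tom negative library, where macrophage-like cells were at 890 CPM. Neutrophil-like cells are small in RNA, with medians of 3564 and 2744.5 UMIs, and they held 18.6% and 10.2% of all Il1b UMIs. Cluster 1 held 29.6% and 43.9% of the Il1b UMIs with 5.37% and 9.01% of the cells. After each cell was thinned to 2000 UMIs, 76.2% and 72.6% of neutrophil-like cells and 75.7% and 82.6% of cluster 1 cells had an Il1b UMI, against 79.9%, 74.3%, 86.1% and 94.1% unthinned. Endothelial-like cells, which should lack it, had one in 0.622% and 1.63% of thinned cells, at unthinned medians of 30849 and 2258.5 UMIs.

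**Figure D2:**
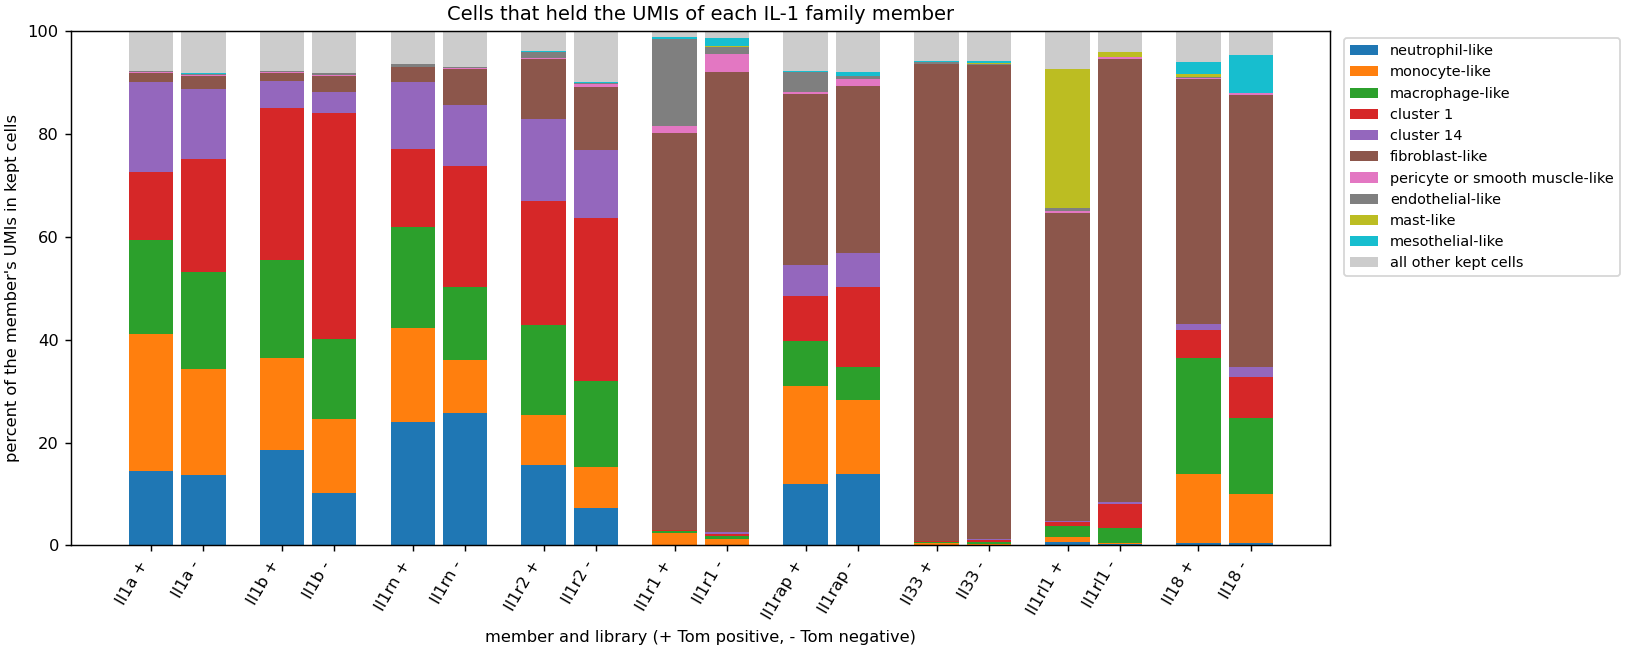
Percent of each member's UMIs (vertical axis) held by each class or unnamed cluster, in bars for the Tom positive (+) and Tom negative (-) library. Fibroblast-like cells held 92.7% and 92.2% of Il33 UMIs, and cluster 1 held 29.6% and 43.9% of Il1b UMIs.

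Il1a, the ligand that also acts from the cell surface and the nucleus, followed Il1b across cell types but in changing proportion. Its level was 732 and 965 CPM in neutrophil-like cells, 310 and 318 CPM in unnamed cluster 14, led by Mmp12 and Nos2, and 143 and 202 CPM in cluster 1. Per Il1b UMI, cluster 14 held 0.624 (0.574 to 0.678) and 0.625 (0.585 to 0.667) Il1a UMIs. Cluster 1 held 0.0861 (0.0796 to 0.0931) and 0.0940 (0.0902 to 0.0981) Il1a UMIs per Il1b UMI, so the proportion was lower than in cluster 14 in both libraries. In cluster 12 the level of Il1a was 207 and 411 CPM.

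Il1rn, the antagonist of IL1R1, stood at 1569 and 1965 CPM in neutrophil-like cells, 299 and 300 CPM in cluster 14 and 155 and 166 CPM in macrophage-like cells. Set against the ligand, Il1rn UMIs per Il1b UMI were 0.128 (0.119 to 0.136) and 0.110 (0.106 to 0.114) in cluster 1, the main source of Il1b UMIs. They were 0.602 (0.553 to 0.655) and 0.590 (0.552 to 0.630) in cluster 14. In neutrophil-like cells the proportion was 0.319 (0.302 to 0.338) and 0.521 (0.498 to 0.544). Those cells were a different mix of finer clusters in the libraries, given below, whose part here was not tested. Monocyte-like cells were at 0.253 (0.237 to 0.269) and 0.146 (0.138 to 0.155), higher in the Tom positive library, as in cluster 1. Neutrophil-like cells ran the other way, and the intervals of cluster 14 overlapped. After thinning, 78.3% of 198 and 81.9% of 332 neutrophil-like cells with an Il1b UMI also had one of Il1rn, against 87.1% of 62 and 87.2% of 125 without an Il1b UMI.

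Il1r2, the decoy receptor, was at 1978 CPM (1893 to 2065) and 1242 CPM (1187 to 1299) in neutrophil-like cells. Cluster 12 followed at 1073 and 1120 CPM, cluster 14 at 709 and 752 CPM and cluster 1 at 652 and 712 CPM. The macrophage-like class was split for this gene. Its cluster 4, led by Ms4a7, Ppbp, Ccl12 and Cd163, was at 30.0 and 44.8 CPM and its cluster 19, led by Retnla and Lyz1, at 49.9 and 41.4 CPM. Of the Tom positive macrophage-like cells, the 45 highest of 448 held 91.3% of the Il1r2 UMIs, while the 45 deepest held 21.2% of all UMIs. Among thinned neutrophil-like cells, 80.3% and 71.4% of those with an Il1b UMI had one of Il1r2, against 50.0% and 51.2% of those without.

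Il1r1, the signalling receptor, was at 364 CPM (359 to 369) and 339 CPM (336 to 343) in fibroblast-like cells. Pericyte or smooth muscle-like cells were close, at 337 CPM (305 to 372) and 300 CPM (284 to 317), with overlapping intervals in the Tom positive library. Endothelial-like cells were at 269 and 169 CPM, and lymphatic endothelial-like cells at 19.3 and 28.9 CPM. Fibroblast-like cells held 77.1% and 89.5% of its UMIs. An Il1r1 UMI was found in 44.8% and 43.0% of thinned fibroblast-like cells (93.7% and 91.1% unthinned, medians of 39714 and 36500 UMIs). Macrophage-like cells, which should have little of it, had one in 2.53% and 4.88% after thinning, at medians of 18093 and 19714 UMIs. The level was 1013 and 1123 CPM in mesothelial-like cluster 22, led by Saa3, Nkain4 and Wt1, whose Tom positive barcodes were all doubted. All mesothelial-like cells held 101 and 588 Il1r1 UMIs among 236116 and 976969 UMIs of all genes. Plasma-like cells held 19 and 87 among 45015 and 169075. Both classes, mostly on doubted barcodes, were thus above the fibroblast-like level.

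The decoy and the signalling receptor thus stood in opposite cells. Per Il1r1 UMI, neutrophil-like cells held 56.9 (40.9 to 81.4) and 44.1 (32.7 to 60.9) Il1r2 UMIs and cluster 1 held 45.8 to 80.3 (interval) in the Tom positive library and 48.9 (42.1 to 57.2) in the other. Fibroblast-like cells held 0.0690 (0.0655 to 0.0727) and 0.0993 (0.0957 to 0.103). Monocyte-like cells lay between, at 2.03 (1.85 to 2.24) and 5.28 (4.74 to 5.89). Cluster 4 of the macrophage-like class was at 1.90 (1.47 to 2.47) and 1.67 (1.32 to 2.12). These proportions are read across cell types and not as one gene being above the other.

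Il1rap, the partner of both signalling receptors, had UMIs on both the myeloid and the stromal side. Fibroblast-like cells held 33.2% and 32.5% of them. Its level was 748 CPM (696 to 802) and 839 CPM (795 to 886) in neutrophil-like cells, 136 and 149 CPM in monocyte-like cells and 35.3 and 32.0 CPM in fibroblast-like cells. The level of the partner was therefore lower in fibroblast-like than in neutrophil-like cells in both libraries, the reverse of Il1r1.

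Il33, the alarm ligand, had 92.7% and 92.2% of its UMIs in fibroblast-like cells but was not confined to them. Epithelial or carcinoma-like cells held 175 and 65 Il33 UMIs among 1604485 and 1012344 UMIs of all genes. Mesothelial-like cells, mostly on doubted barcodes, held 33 and 151 among 236116 and 976969. Fibroblast-like cells were at 245 CPM (241 to 249) and 273 CPM (270 to 276). An Il33 UMI was found in 29.9% and 35.7% of thinned fibroblast-like cells (79.1% and 78.7% unthinned) and in 0.919% and 1.83% of thinned macrophage-like cells. Endothelial-like cells were at 3.21 and 16.7 CPM. The 231 CPM of the Tom negative lymphatic endothelial-like class overlapped the fibroblast-like interval and came from 34 cells, of which 11.8% had an Il33 UMI and 64.7% had doubted barcodes. Cluster 17, unnamed and led by Fam19a2, Hmga2 and Mmp10, was higher than any fibroblast-like cluster at 809 and 602 CPM, in 24 and 59 cells. It stayed unnamed because its leading genes held more epithelial or carcinoma markers than pericyte or smooth muscle markers.

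Within the fibroblast-like class, cluster 5, led by Csmd1, Sfrp4, Cxcl13 and Adh1, was highest for both Il33 and Il1r1. Its Il33 was at 413 CPM (400 to 426) and 552 CPM (535 to 569) and its Il1r1 at 470 CPM (456 to 484) and 583 CPM (566 to 601). Cluster 16, led by Brinp3, Adgrb3, Crabp1 and Tnc, was lowest for both, with Il33 at 102 and 147 CPM and Il1r1 at 209 and 201 CPM. Among thinned Tom positive fibroblast-like cells, 35.7% of 675 with an Il1r1 UMI had one of Il33, against 25.2% of 831 without. In the Tom negative library these shares were 39.9% of 1026 and 32.5% of 1361.

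**Figure D3:**
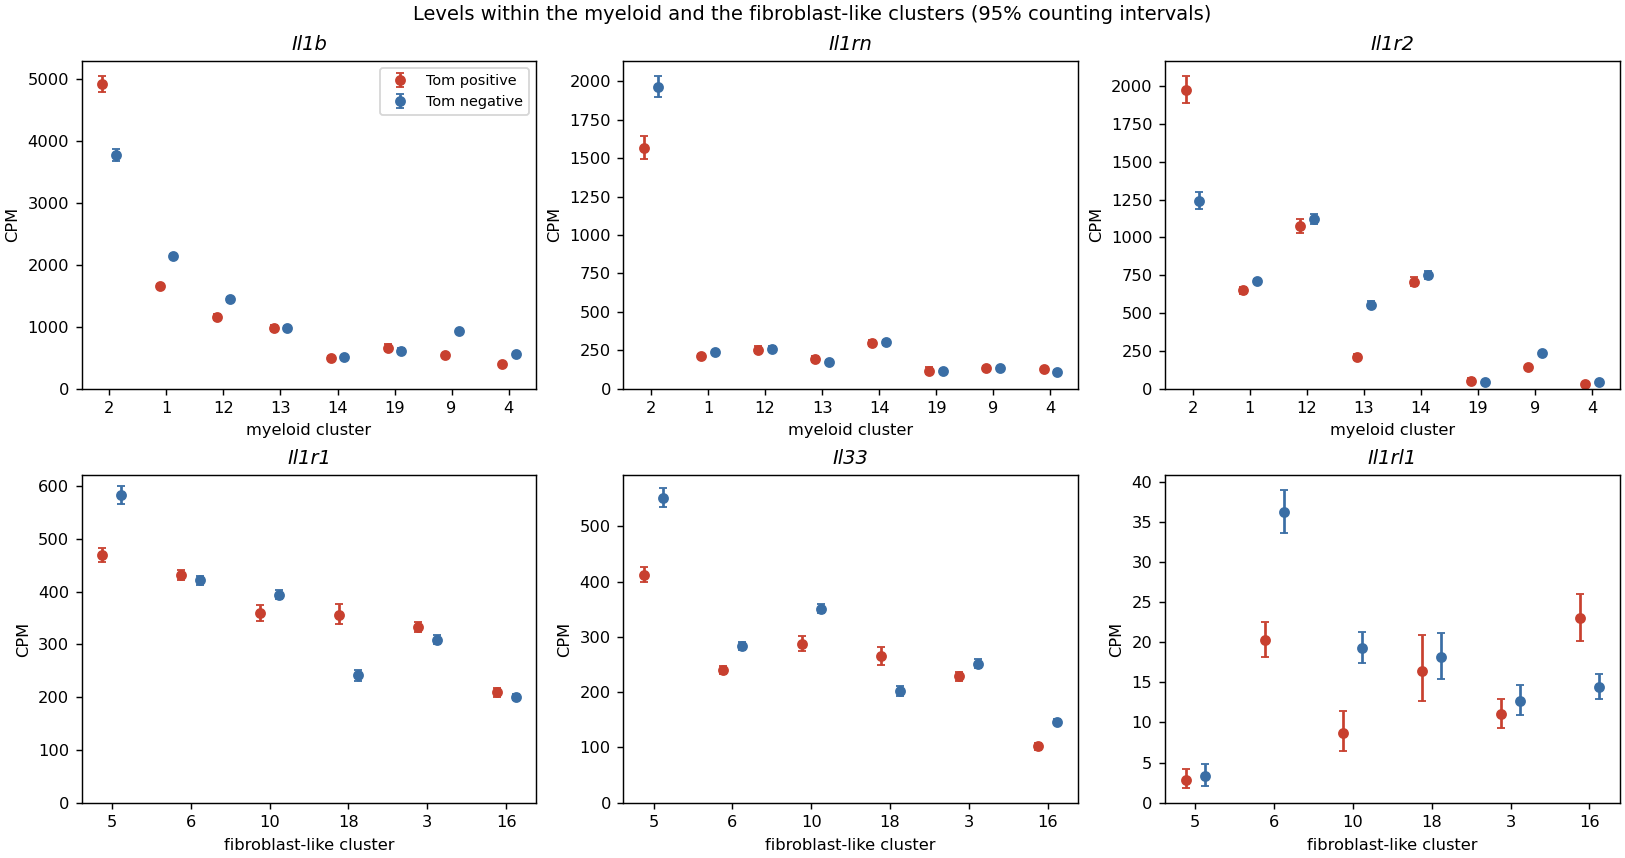
CPM with 95% counting intervals of Il1b, Il1rn and Il1r2 in myeloid clusters (top) and of Il1r1, Il33 and Il1rl1 in fibroblast-like clusters (bottom), Tom positive in red and Tom negative in blue. Cluster 2 is neutrophil-like, cluster 9 monocyte-like, and 4, 12 and 19 macrophage-like. Cluster 5 is highest and cluster 16 lowest for both Il1r1 and Il33 in both libraries.

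Il1rl1, the IL-33 receptor, was highest in mast-like cells, which are known to carry it: 1861 CPM (1684 to 2052) in 31 Tom positive cells, all of which had a UMI. The Tom negative library held 2 such cells, too few for a level. T or NK-like cells came next at 204 and 94.9 CPM, in 39 and 14 cells. Fibroblast-like cells were at 14.6 and 19.1 CPM, yet as the most numerous class held 59.9% and 86.1% of Il1rl1 UMIs. Within fibroblast-like cells the gene was concentrated, with 89.7% of its UMIs in the 156 highest of 1553 cells and 91.4% in the 259 highest of 2583. Ranked likewise, the highest cells held 91.1% and 67.7% of Il1b UMIs, 100% and 80.5% of Il1rn UMIs and 42.8% and 43.7% of Il33 UMIs. A high share was thus not particular to Il1rl1. Cluster 5, the highest for Il33, was the lowest fibroblast-like cluster for Il1rl1 in both libraries.

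Il18, the ligand of the IL-18 receptor, was low throughout. Macrophage-like cells were at 26.3 CPM (23.0 to 29.9) and 25.8 CPM (22.8 to 29.1), led by cluster 4 at 31.7 and 37.3 CPM. Fibroblast-like cells held 47.5% and 52.8% of Il18 UMIs at 7.85 and 9.81 CPM, with 21.0 and 22.8 CPM in cluster 10, led by Clec3b and Tnxb. Mesothelial-like cells were at 102 and 131 CPM, on doubted barcodes. Endothelial-like cells were at 0.166 and 0.321 CPM.

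Between the libraries, a member was counted as apart where its level was at least 10 CPM in either library and its ratio at least 1.5-fold. Over all kept cells, Il1a, Il1b and Il1r2 were lower in the Tom positive library, 3 of 9 members, while 1.62% of 9370 genes were lower and 7.73% apart in either direction. Il1b was at 233 and 385 CPM (ratio 0.605, 0.597 to 0.614), Il1a at 44.6 and 72.4 CPM and Il1r2 at 112 and 176 CPM. The sums mix cell types in different shares, and fewer cells and less RNA per cell cannot be told apart in them. Restricting Tom positive cells to the 1657 with at least 500 CPM of tdTomato turned all 3 differences to log2 differences of 0.57, 0.51 and 0.43, in the order Il1a, Il1b, Il1r2. That limit changes the cell mix, since it kept 434 of 539 monocyte-like and 322 of 448 macrophage-like cells but 275 of 1553 fibroblast-like cells, against all Tom negative cells. With each cell thinned to 2000 UMIs, 3 members were again apart, but these were Il1a, Il1rn and Il1rl1. With at most 5% mitochondrial UMIs, 0 of 9 were apart.

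Monocyte-like cells had 4 of the 7 members at 10 CPM apart, against 3.98% of 7836 genes. Il1b was at 541 and 926 CPM (ratio 0.584, 0.563 to 0.605), Il1a at 154 and 246 CPM (0.625, 0.584 to 0.668) and Il1r2 at 144 and 234 CPM (0.616, 0.575 to 0.660). Il1r1 was higher in the Tom positive library, at 70.8 and 44.3 CPM (1.60, 1.41 to 1.81). Il1rn, at 137 and 135 CPM, was not apart, the interval of its ratio running from 0.932 to 1.09. The monocyte markers summed to 4131 and 2764 CPM in these cells, with Ly6c2 lowest of 6 at 10.4 and 12.1 CPM, and neutrophil markers to 1567 and 943 CPM, of which Mmp9 alone was 1382 and 785 CPM. Their part in the difference was not tested. With at most 5% mitochondrial UMIs 2 members, Il1a and Il1b, were apart. Monocyte-like cells and cluster 1 were added to the comparison after the data were seen.

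In cluster 1, 0 of 7 members were apart, against 3.79% of 7971 genes. The largest difference there was that of Il1a, at a ratio of 0.707 (0.649 to 0.770), and Il1b was at 0.772 (0.753 to 0.792). The level of Il1b in its main source thus differed less than 1.5-fold between the libraries.

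In macrophage-like cells 4 of 8 members were lower in the Tom positive library, against 2.25% of 8191 genes lower and 4.46% apart. Il1a was at 110 and 205 CPM, Il1r2 at 265 and 439 CPM, Il1r1 had a ratio of 0.643 (0.506 to 0.813), and Il33 was at 3.70 and 10.1 CPM. Il33 entered that count only through the Tom negative library, where it was higher. The class was made of different clusters in the libraries: clusters 4, 12 and 19 held 340, 70 and 38 Tom positive and 280, 133 and 93 Tom negative cells. Within cluster 4, 1 of 7 members, Il1r1, was apart, against 4.80% of genes. Within cluster 12, Il1a was at 207 CPM (187 to 228) and 411 CPM (391 to 432), and within cluster 19 at 78.0 and 103 CPM, with overlapping intervals. With at most 5% mitochondrial UMIs 2 members of the class, Il1r1 and Il33, were apart, and the log2 difference of Il1r2 turned from -0.73 to 0.08. Fibroblast markers summed to 1479 and 1726 CPM in the macrophage-like cells, and their part in the Il33 and Il1r1 values was not tested.

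In neutrophil-like cells Il1r2 was higher in the Tom positive library, at a ratio of 1.59, and Il33 lower on 13 and 32 UMIs. That is 2 of 7 members, against 44.2% of 7810 genes. The class sums were 1035053 and 1561947 UMIs, so genes near 10 CPM rested on few UMIs and could pass 1.5-fold by counting error. The share of members is therefore not read against that of all genes. The median gene was itself 0.38 higher on the log2 scale. At Leiden resolution 2 the neutrophil-like clusters held 142, 73 and 74 Tom positive and 134, 106 and 304 Tom negative cells. Il1b was among the top 10 genes of the cluster with 142 and 134 cells, and Il1rn of that with 73 and 106. The part of this mix in the differences was not tested. After scaling by TMM factors the log2 difference of Il1r2 was 0.31, under 1.5-fold, while Il1a, Il1rn and Il33 were lower and past it. Il1b, at a ratio of 1.30 (1.25 to 1.35), had a log2 difference equal to the median gene's.

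**Figure D4:**
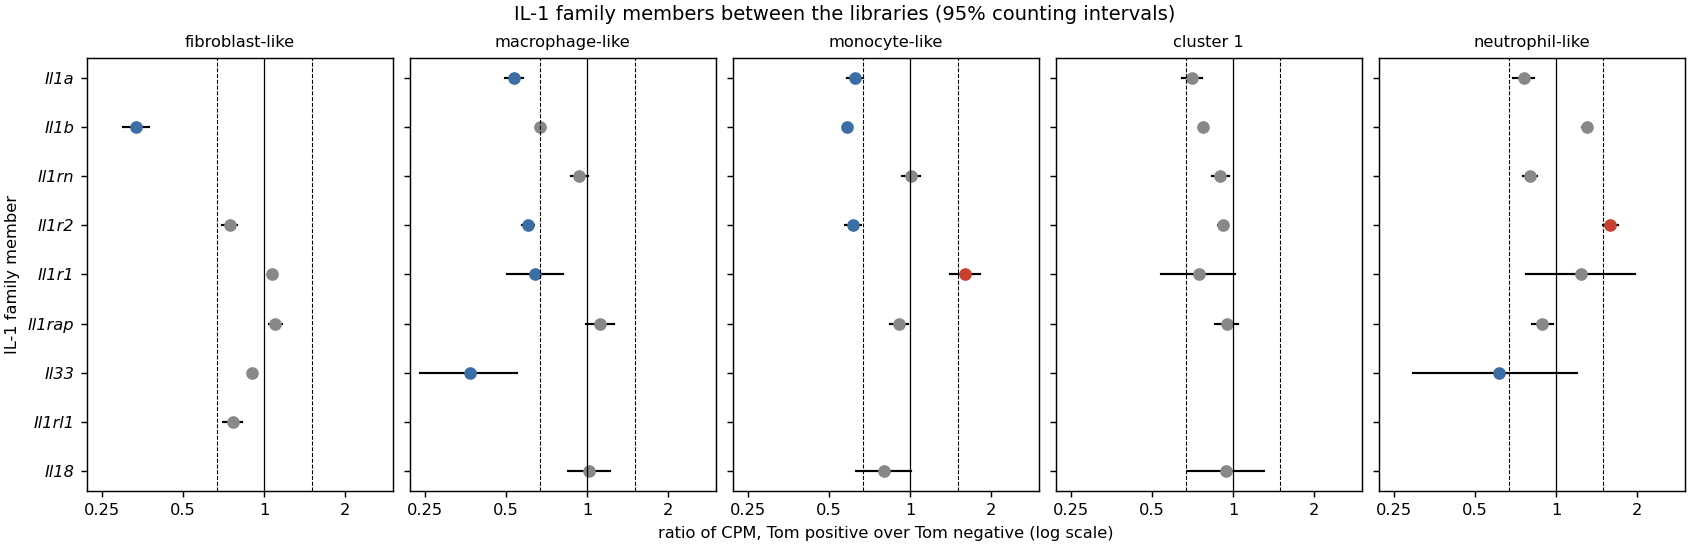
Ratio of CPM, Tom positive over Tom negative (log axis), with 95% counting intervals, for members at 10 CPM or more in 5 populations. Dashed lines mark 1.5-fold either way, and red and blue points lie past it. Il1r1 and Il1r2 lie on opposite sides in monocyte-like cells, and no member of cluster 1 lies past 1.5-fold.

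In fibroblast-like cells 1 of 6 members was lower, against 1.38% of 8672 genes lower and 2.21% apart. This was Il1b, at 6.30 and 18.8 CPM (ratio 0.334, 0.299 to 0.374), on levels far below those of myeloid cells. Il1b reached 10 CPM here only in the Tom negative library, where it was higher, so that count is not taken as support. Neutrophil markers moved the same way in fibroblast-like cells, with none of 6 at 50 CPM and sums of 17.4 and 62.4 CPM, and macrophage markers summed to 140 and 185 CPM. Thinned shares with an Il1b UMI, 0.863% and 2.97%, stood beside 0.622% and 1.63% in endothelial-like cells, the latter on 2 of 123 cells. The part of RNA from myeloid cells was not tested. Within clusters 3, 6, 10 and 16 the ratio was 0.196, 0.300, 0.163 and 0.379, and in cluster 5 it was 1.12, where a single Tom positive cell held 80 Il1b UMIs. After thinning, 4 members were lower in fibroblast-like cells, Il1b, Il1r2, Il1rn and Il1rl1. The members with high fibroblast levels differed little: Il1r1 had a ratio of 1.07 (1.05 to 1.09), Il33 0.898 (0.880 to 0.916) and Il1rap 1.10 (1.04 to 1.16). The largest fibroblast-like cluster was 6 in the Tom positive (427 cells) and 16 in the Tom negative library (648 cells).

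In endothelial-like cells Il1r1 was higher in the Tom positive library, at 269 and 169 CPM (ratio 1.60, 1.46 to 1.75), and Il1b, Il1r2 and Il33 were lower, 4 of 5 members against 13.3% of 9068 genes. The lower members reached 10 CPM only in the Tom negative library, where they were higher, so that count is not taken as support. The direction of Il1r2 did not hold, its log2 difference turning from -1.08 to 0.18 after thinning, when 2 members were apart, and to 0.36 with Tom positive cells limited by tdTomato. Without the doubted barcodes the log2 difference of Il1r1 was 0.67, as with them, but this setting could change the sums little. Of the 117 doubted Tom negative barcodes, 109 lay in cluster 11, which held 174730 of the 3111947 Tom negative UMIs of the class. The class was a different mix in the libraries. At Leiden resolution 2 the cluster led by Cyyr1 and Selp held 308 Tom positive and 38 Tom negative cells. That led by Adgrl4, Cyyr1 and Gpihbp1 held 157 and 80, and a shallow one with a median of 1312 UMIs held 44 and 118. The part of this mix in the Il1r1 difference was not tested. The 236 Il1b UMIs of the Tom negative cells lay to 96.6% in 24 of 236 cells, the highest cell holding 107. Myeloid markers were also higher in that library, at 277 and 575 CPM for the macrophage list.

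Genes around the pathway were read from 5 lists. Nlrp3, the inflammasome sensor, was at 837 and 875 CPM and Irak2, a kinase below the receptors, at 993 and 834 CPM in neutrophil-like cells. Of the inflammasome and processing list, 12 of 12 were at 10 CPM or more in monocyte-like and macrophage-like cells and 0 were past 1.5-fold in either, beside 3.98% and 4.46% of all genes. The receptor signalling list had 0 of 11 past 1.5-fold in fibroblast-like cells, beside 2.21% of all genes, with a median log2 difference of -0.06 beside -0.03 over all genes. Of 10 listed IL-33 response genes, 1 reached 10 CPM in fibroblast-like cells and it was not past 1.5-fold. Il1f9, which encodes IL-36 gamma, was at 309 and 356 CPM in neutrophil-like cells and at most 4.51 CPM in the next class. Il18rap, the accessory chain of the IL-18 receptor, was at 318 and 259 CPM in the same cells. Il1rl2, the IL-36 receptor, was at 69.1 and 78.1 CPM in fibroblast-like cells. Il1rapl1 was at 538 and 610 CPM in mesothelial-like cells, on doubted barcodes.

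Of 19 genes listed as IL-1 responses of fibroblasts, 17 were at 10 CPM in fibroblast-like cells. The chemokine genes Cxcl1, Cxcl2 and Ccl2 were lower in the Tom positive library and Cxcl5 and Saa3 higher, 5 of 17 beside 2.21% of all genes apart, with a median log2 difference of -0.16 beside -0.03 over all genes. Cxcl1 was at 536 and 906 CPM, Cxcl2 at 89.8 and 191 CPM and Ccl2 at 181 and 334 CPM. Cxcl1 was also lower in the Tom positive library in the other populations compared, but at far lower levels than in fibroblast-like cells. It was at 32.0 and 83.7 CPM in macrophage-like cells (ratio 0.383) and 46.4 and 122 CPM in neutrophil-like cells (0.381). Endothelial-like cells were at 25.5 and 63.6 CPM (0.400) and cluster 1 at 34.6 and 85.9 CPM (0.403). Monocyte-like cells were at 63.7 and 73.8 CPM (0.864). The part of RNA from fibroblast-like cells in these values was not tested. Cxcl2 was at 27217 and 44414 CPM in neutrophil-like cells, whose markers summed to 17.4 and 62.4 CPM in the fibroblast-like cells, and their part in its difference was not tested. Saa3, an acute phase protein gene, was at 158 and 71.5 CPM and Cxcl5 at 116 and 76.4 CPM. Il6 was at 153 and 212 CPM and Ptgs2 at 155 and 152 CPM, neither past 1.5-fold, named after their values were seen. The listed genes thus differed in both directions.

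By correlation of log2(CPM + 1) over the same 39 points and 13613 genes, the closest genes to Il1a were Ccl6 (r = 0.958), Clec4n and Bcl2a1d, and to Il1b Il1rn (r = 0.96), Trem1 and Bcl2a1b. Ccr1 (r = 0.967) was closest to Il1rn and Ifitm1 (r = 0.921) to Il1r2. On the stromal side, Il33 was closest to Loxl1 (r = 0.954), Adgrd1 and Bnc2, and Il1r1 to B3galt1 (r = 0.933), Gem and Prickle2. Il1rap (Atf1, r = 0.867), Il18 (Sdc4, r = 0.871) and Il1rl1 (Gm10635, r = 0.737) had weaker closest genes.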

How the data were processed

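Per the labels, tumours were dissociated, sorted by FACS and each fraction made into 1 library with the 10x Genomics 3′ kit v3.1. The deposited tables hold UMI counts for each gene and barcode. The submitters' processing notes name Cell Ranger 7.0.1 and the mm10 build for the authors' counts. How barcodes were called as cells is not given in the sources used here. The tables held 7568 Tom positive and 13604 Tom negative barcodes with 128275546 and 164646314 UMIs.

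Barcodes needed a minimum of 500 genes and 1000 UMIs and no more than 10% of UMIs from mitochondrial genes, which left 4365 and 6677. Scrublet, run in scanpy 1.11.5, then removed 63 and 97 doublets. Members and tdTomato were kept out of the 2000 variable genes behind 30 principal components, 15 neighbours and Leiden clustering (igraph 0.11.9, resolution 1). Clusters took names from 23 marker lists. A name required 3 markers at 50 CPM, a mean log2 excess of 1 relative to the median cluster, and top 10 genes not dominated by another class's markers. UMIs were summed by library and class, then scaled by the sum's own total. The 95% intervals are Poisson for CPM, exact binomial for shares and exact conditional for ratios (scipy 1.17.1). Log2 differences add 1 CPM. The comparison and interval steps were run on simulated Poisson counts. Those lack the concentration of UMIs in few cells, so that run cannot show whether the intervals are wide enough here. The 3 genes closest to each member, and list genes with the largest ratios or highest levels, were named. The members and lists were chosen with earlier results of these data known. IL-36 genes were matched to older symbols through RefSeq synonyms. Alternatives changed filters, scaling, minimum level, pseudocount, thinning, doubted barcodes, resolution and reporter level.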

Additional observations from a re-analysis of the deposited data

Results flagged for a closer look

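The difference between libraries ran opposite ways in different cell types for the 2 IL-1 receptors, each past 1.5-fold on both sides, and the contrast between cell types was not tested since each side rests on 1 library per group. The log2 difference of Il1r1 was 0.67 in endothelial-like and 0.66 in monocyte-like cells and -0.60 in macrophage-like cells, so they lie 1.27 and 1.26 apart. The endothelial-like and macrophage-like classes were each a different mix of clusters in the libraries, whose part was not tested. The log2 difference of Il1r2 was 0.67 in neutrophil-like cells and -0.73, -1.08 and -0.70 in macrophage-like, endothelial-like and monocyte-like cells, a gap of 1.40, 1.75 and 1.37. In endothelial-like cells Il1r2 reached 10 CPM only in the Tom negative library, where it was higher, so the gap of 1.75 is not taken as support. All these pairs were listed because their differences were opposite. The median gene was at 0.38 in neutrophil-like cells, and with TMM factors Il1r2 there was at 0.31, under 1.5-fold. The negative side turned to 0.08 in macrophage-like cells at 5% mitochondrial UMIs, and to 0.18 on thinning and 0.36 at the tdTomato limit in endothelial-like cells.

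Barcodes under 1000 UMIs, left out of every comparison, held Il1r1 at 433 and 540 CPM (Tom positive first, over 2281 and 6285 barcodes), above the 245 and 239 CPM of the kept cells. Il18 was at 58.8 and 58.5 CPM in those barcodes, above 8.60 and 11.7 CPM. The other 7 members were not above the kept cells in both libraries.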

How the results depend on the processing

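Of 102 recomputed counts of members past 1.5-fold, 86 stayed within 1.5 times of the reported count. Of 266 log2 differences 205 stayed within their counting interval, as did 166 of 216 levels and 125 of 162 shares. With at most 5% mitochondrial UMIs the count was 0 over all kept cells, 2 in macrophage-like and monocyte-like cells and 1 in cluster 1. With a minimum of 50 CPM it was 0 in fibroblast-like, 1 in neutrophil-like and 2 in macrophage-like and endothelial-like cells, and with no minimum 3 in fibroblast-like cells, 7 in endothelial-like cells and 2 in cluster 1. Keeping doublets gave 3 in fibroblast-like cells and 1 in cluster 1. Thinning to 2000 UMIs gave 4 in fibroblast-like and 2 in endothelial-like cells. Limiting the Tom positive library to cells with a tdTomato level of 500 CPM gave 1 in cluster 1. Over all kept cells that setting turned Il1a to 0.57, Il1b to 0.51 and Il1r2 to 0.43, and Il1r2 in endothelial-like cells to 0.36. Il1r2 also turned to 0.18 in endothelial-like cells on thinning and to 0.08 in macrophage-like cells at 5% mitochondrial UMIs. The causes were not tested. At resolution 0.5 no cluster was named monocyte-like, and no value was computed for cluster 1 at resolutions 0.5 and 2, although resolution 2 has an unnamed cluster also led by Ccl17 and Mgl2. Depth limits Il18 and Il1rl1 outside their main cells, and 1 library per group limits every comparison. No paired analysis was possible because each group has 1 library.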
